A study of Saccharomyces cerevisiae with 36 samples.

Results

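The 36 genes described here are the nuclear genes of the yeast respiratory chain and of the mitochondrial ATP synthase, out of 6717 genes in the deposited tables. They were chosen by gene identifier, with no measured value in the choice. They encode succinate dehydrogenase (SDH1 to SDH4), the internal NADH dehydrogenase NDI1, 9 subunits of the bc1 complex, the cytochrome c isoforms CYC1 and CYC7, 9 subunits of cytochrome oxidase and 11 subunits of the ATP synthase. All 36 identifiers were in the tables and matched a gene of the R64 annotation. Their levels were followed in 12 groups of 3 libraries each: strain 12 (dominant) and strain 11 (non-dominant) of Saccharomyces cerevisiae, each grown in mixed and in single culture in natural Nebbiolo grape must with shaking, and sampled after 12, 20 and 30 h. These times stood for early exponential growth, mid exponential growth and the start of stationary phase. All libraries came from cells that carried GFP or eSapphire, fluorescent proteins that allow a cytometer to tell strains apart, and that had been sonicated, sorted and frozen before RNA extraction and amplification. The markers were also swapped between the strains, and the labels do not say which marker a library carried. The fermentations were run in triplicate, and the paper took aliquots from them at 3 phases. Libraries of different times may therefore come from the same fermentations.

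In yeast, electrons enter the respiratory chain from NADH dehydrogenases of a single subunit and from succinate dehydrogenase. They pass through ubiquinone, the bc1 complex, cytochrome c and cytochrome oxidase to oxygen, and the ATP synthase uses the proton gradient built on the way. Much of this machinery is repressed while yeast ferments abundant glucose, and is activated by the Hap2/3/4/5 complex, which binds DNA at CCAAT motifs, and by the haem-responsive factor Hap1. Some subunits exist as isoform pairs, of which CYC1 and COX5A are known as the aerobic forms and CYC7 and COX5B as the hypoxic forms.

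Sequencing was shallow, with 35400 to 530376 reads on genes per library and medians of 230090 reads at 12 h, 88929 at 20 h and 91418.5 at 30 h. Depth therefore moved with time, and its part in the differences between 12 h and later times was not tested. Of the 36 genes, 33 passed the filter on low counts that 3670 of all genes passed, and these 33 were tested. COX7 (YMR256C, 11 reads in 36 libraries), COX9 (YDL067C, 124 reads) and ATP20 (YPR020W, 56 reads) were left out. RNA of the other strain in a sorted fraction was followed with 3 genes that had reads in strain 11 and none in single cultures of strain 12 (YLR227W-B, YNL284C-B and YNL284C-A, chosen from earlier results of these libraries). Their summed level over all times was 0 to 39.2 CPM (counts scaled to library size) in strain 12 from mixed cultures, 0 CPM in strain 12 from single cultures, 16.2 to 193 CPM in strain 11 from mixed cultures and 174 to 287 CPM in strain 11 from single cultures. Whether the expression of these 3 genes itself changes with culture was not tested.

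Per length, most of these genes were among the abundant messages. RPKM is CPM per kilobase of gene length, here from the deposited counts after scaling. By RPKM averaged over the 12 groups, 34 of the 36 lay above the median of all 6717 genes and 26 above the 90th percentile. Of the 6717 genes, 3670 passed the filter on low counts, so both marks include many genes with few reads. QCR7 (YDR529C), a small bc1 subunit, was highest at 1401 RPKM, next to ATP5 (YDR298C), the stalk subunit that corresponds to mammalian OSCP, at 1396 RPKM. QCR6 (YFR033C), the acidic hinge subunit of the bc1 complex, reached 1301 RPKM, and QCR9, a further small subunit, 1268 RPKM. SDH2 (YLL041C), the iron-sulphur subunit of succinate dehydrogenase, stood at 1203 RPKM, well above the flavoprotein SDH1 (298 RPKM) and the membrane anchors SDH3 (441 RPKM) and SDH4 (237 RPKM). The internal NADH dehydrogenase NDI1 had 803 RPKM.

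The complexes differed in how even their subunits were. All 9 bc1 subunits lay between 299 RPKM (QCR8) and 1401 RPKM (QCR7), a 4.68-fold range. The ATP synthase had a median of 806 RPKM, with its catalytic head close together: ATP1 (alpha) at 878 RPKM, ATP2 (beta) at 834 RPKM and ATP3 (gamma) at 827 RPKM. Its smaller head subunits ATP15 (epsilon, 316 RPKM) and ATP16 (delta, 171 RPKM) were lower. Cytochrome oxidase had the lowest median of the multi-subunit complexes, 238 RPKM, and ran from COX7 at 14.9 RPKM to COX5A at 797 RPKM. In RPKM the 8 genes shorter than 300 bases had a median of 269, against 462 for the 28 longer ones. Across these 36 genes, which share their libraries, Spearman's rho between length and RPKM was 0.39. Over the 3670 genes that passed the filter on low counts it was -0.44. The sets are unlike, because the 36 include COX7, COX9 and ATP20, which did not pass that filter. A filter on counts keeps a short gene only at a higher RPKM than a long one, so these values cannot be compared. COX4 is listed with a length of 808 bases, more than its 468 coding bases in R64, so its 290 RPKM is a low estimate per coding base.

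**Figure D1:**
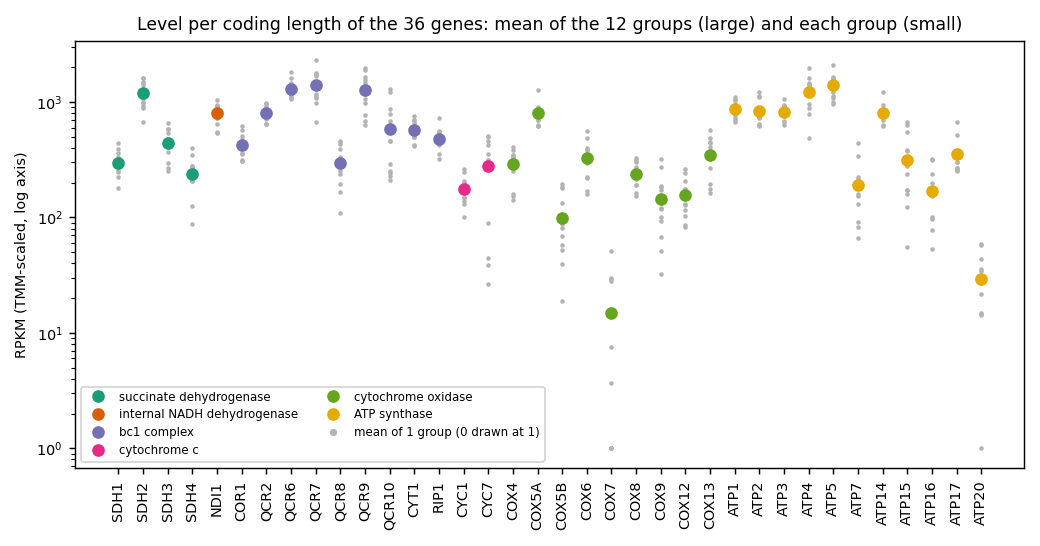
Level of each of the 36 genes in TMM-scaled RPKM on a log axis, by complex. Large points are the mean of the 12 groups and small points the means of single groups, with groups at 0 drawn at 1. QCR7 (1401 RPKM) and ATP5 (1396 RPKM) stand highest, COX7 (14.9 RPKM) and ATP20 (29.5 RPKM) lowest.

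Summed over the 36 genes, the share of all reads lay between 0.941 and 1.85% per library. At 12, 20 and 30 h it was 1.14 ± 0.080, 1.49 ± 0.149 and 1.61 ± 0.221% in strain 12 from mixed cultures (SD, n = 3 libraries each) and 1.19 ± 0.0888, 1.56 ± 0.235 and 1.74 ± 0.0949% in strain 12 from single cultures. In strain 11 it was 1.05 ± 0.0209, 1.25 ± 0.181 and 1.22 ± 0.274% in mixed cultures and 1.18 ± 0.0521, 1.44 ± 0.116 and 1.46 ± 0.284% in single cultures. The mean share was lowest at 12 h in each of the 4 series, and strain 11 from mixed cultures had the lowest mean share at each time.

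Most of the genes followed one another over the groups. As a description over the 12 group means, 25 of the 33 tested genes correlated with the mean of the other 32 by more than 0.5, with a median r of 0.67. SDH2 (0.92) and QCR10 (0.90), a small bc1 subunit, tracked the others best. CYC1 (0.11), ATP5 (0.18), QCR6 (0.19) and QCR7 (0.26) tracked them least. Among genes outside the set, those most like its mean over the 12 groups were THI7, a thiamine transporter (r = 0.96), COX26, a small protein of cytochrome oxidase (0.96), SCW4, a cell wall protein (0.94), DAL80, a repressor of nitrogen catabolic genes (0.94), and RDS1 (0.93).

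**Figure D2:**
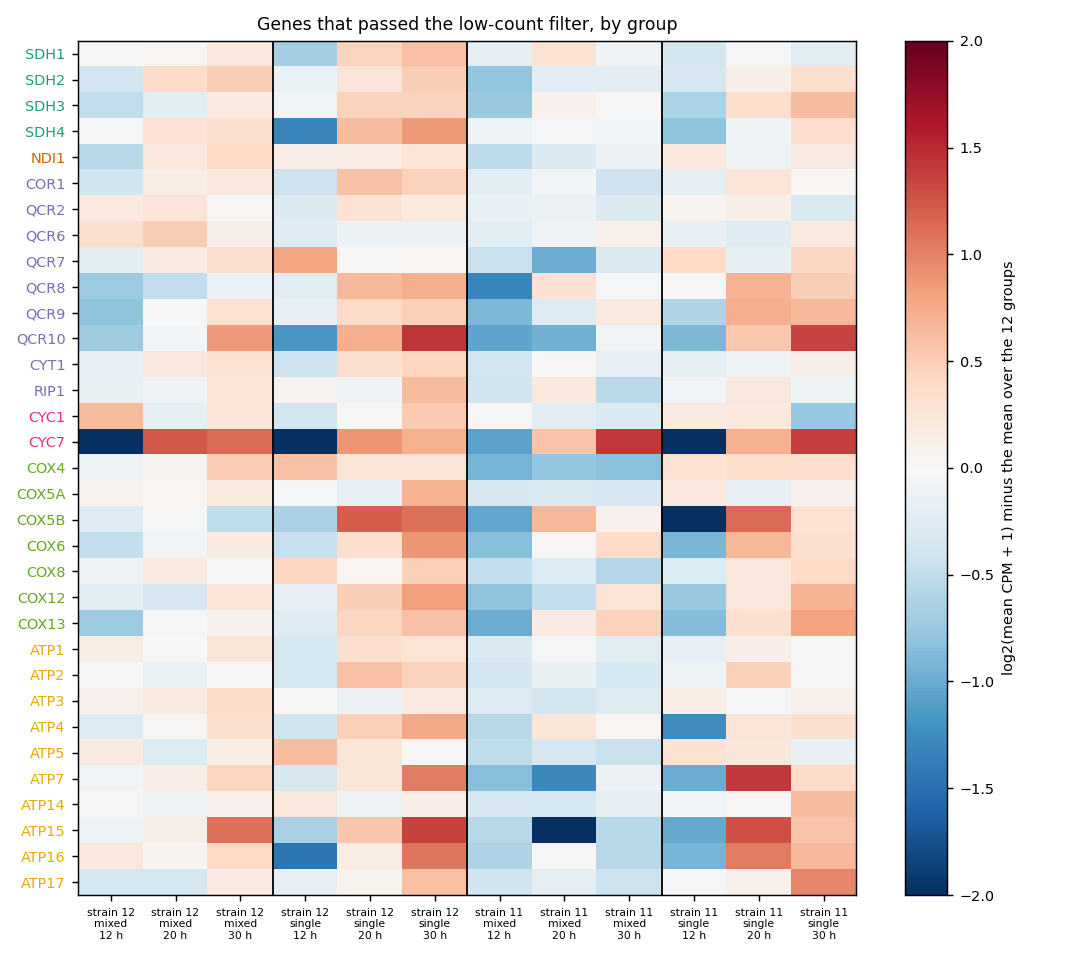
Each tested gene (rows, coloured by complex as in the plot of RPKM levels) in the 12 groups (columns), as log2 of the mean CPM plus 1, minus the gene's mean over the groups. The colour scale stops at 2 above and 2 below. The 12 h columns are low for most genes, and CYC7 is lowest there in all 4 series.

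The first comparison asked how the genes changed as the fermentation proceeded, with both cultures of a strain averaged. Between 12 and 20 h, 8 of the 33 tested genes rose in strain 12 and 10 rose in strain 11, and none fell in either strain. This was by edgeR's quasi-likelihood test at 0.05 or less after Benjamini-Hochberg adjustment over all 3670 genes. Over all genes tested, 18.4% rose in strain 12 and 16.2% in strain 11 (36.1% and 31% were called in either direction). Over the 33 genes the median log2 fold change was 0.41 in strain 12 and 0.40 in strain 11, against 0.00 and -0.04 over all genes. By complex, the genes that rose in strain 12 were SDH1, SDH2 and SDH4, the bc1 genes COR1 (a core protein), QCR9 and QCR10, CYC7, and ATP4, subunit b of the ATP synthase stator. In strain 11 they were SDH3, QCR8 and QCR9, CYC7, the cytochrome oxidase genes COX5B, COX6 and COX13, and the ATP synthase genes ATP4, ATP7 (stator subunit d) and ATP16. The strains share CYC7, QCR9 and ATP4 among these, and whether the changes of the other genes differed between the strains was not tested. The averaged rise of ATP7 in strain 11 came from the single cultures. There it had 40 of 1091244 reads at 12 h and 45 of 208477 at 20 h. In mixed cultures it had 44 of 800974 reads at 12 h and 12 of 276225 at 20 h, which is no rise.

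CYC7 (YEL039C), the hypoxic cytochrome c, showed the clearest rise. At 12, 20 and 30 h, strain 12 had a median of 15.8 CPM (lowest 5.01, highest 22.5), 168 CPM (28.2 to 181) and 119 CPM (78.4 to 193) over 6 libraries each. Strain 11 had 19.7 CPM (4.21 to 35.2), 92.8 CPM (57.9 to 181) and 158 CPM (97.9 to 315). In both strains all 6 libraries at 20 h lay above all 6 at 12 h. The log2 fold change from 12 to 20 h was 3.21 ± 0.42 in strain 12 (SE, adjusted p = 7.94e-09) and 2.52 ± 0.42 in strain 11 (adjusted p = 3.22e-06), and CYC7 kept an adjusted p of at most 0.05 without any 1 of the 12 libraries in each strain. The 12 h values rest on 1 to 11 reads per library in each strain. At 20 h the lowest library of strain 12 (28.2 CPM) rests on 1 read, so its place above the 12 h libraries does too.

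CYC1 (YJR048W), the aerobic cytochrome c, did not pass the test. At 12, 20 and 30 h it had medians of 62.7, 48.9 and 79.4 CPM in strain 12 and 63.2, 40.2 and 39.4 CPM in strain 11. The balance of the pair moved with CYC7. CYC7 made up 18.8 ± 9.0, 70.5 ± 12.3 and 61.7 ± 14.8% of the reads of both genes in strain 12 (SD, n = 6 libraries per time). In strain 11 it made up 24.1 ± 16, 66.9 ± 8.4 and 82.0 ± 8.4%. These shares rest on 6 to 38, 2 to 76 and 9 to 35 reads of the pair per library in strain 12. In strain 11 they rest on 14 to 44, 5 to 25 and 8 to 48 reads. Each library's share counted equally in the tests that follow, whatever its reads, and libraries of different times were treated as independent. From 12 to 20 h the share was 51.8 percentage points higher in strain 12 and 42.8 points higher in strain 11. Each had p = 0.005 in a two-sided exact permutation test within cultures (n = 6 against 6), the smallest p it can give, and adjusted p = 0.0133 over 8 such tests. From 20 to 30 h the share was 15.1 points higher in strain 11 (n = 6 against 6, exact p = 0.025, adjusted p = 0.05) and 8.86 points lower in strain 12 (-8.86, exact p = 0.245, adjusted p = 0.245). The coding sequences of the pair are 78.1% identical over their aligned bases in R64, with a longest shared run of 35 bases, shorter than the reads by the study's methods.

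The other pair, COX5B (YIL111W) and COX5A (YNL052W), encodes alternative forms of cytochrome oxidase subunit 5. COX5B had medians of 19.4, 57.9 and 51.7 CPM at 12, 20 and 30 h in strain 12 and 9.20, 55.1 and 40.6 CPM in strain 11. Its log2 fold change from 12 to 20 h was 2.53 ± 0.59 in strain 11 (adjusted p = 0.000606), and 1.11 in strain 12, where it did not pass the test. These levels rest on 0 to 15 reads per library. COX5A stayed the more abundant form, with medians of 354, 319 and 445 CPM in strain 12 and 343, 316 and 353 CPM in strain 11, and did not pass the test in either strain. COX5B made up 6.26 ± 4.22, 19.1 ± 15.5 and 9.09 ± 6.08% of the reads of the pair in strain 12 and 3.97 ± 2.94, 18.6 ± 9.4 and 9.97 ± 6.05% in strain 11 (SD, n = 6). At 20 h the pair had 7 to 181 reads per library in strain 12 and 14 to 45 in strain 11. The exact permutation p from 12 to 20 h (n = 6 against 6) was 0.055 in strain 12 (adjusted 0.088) and 0.005 in strain 11 (adjusted 0.0133). From 20 to 30 h it was 0.135 in strain 12 and 0.125 in strain 11, both 0.154 after adjustment.

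**Figure D3:**
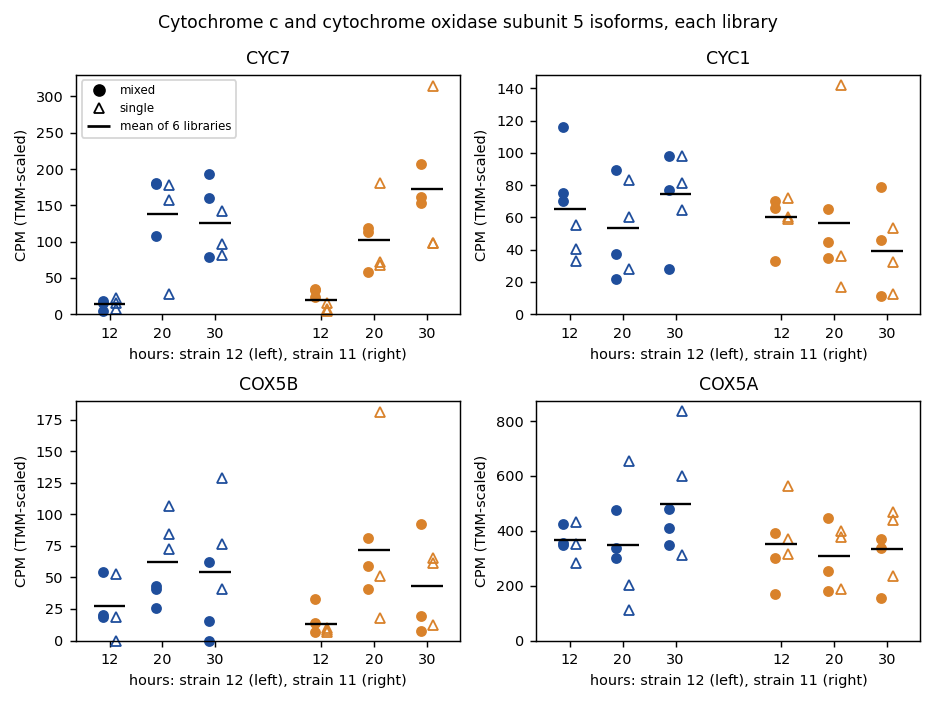
CPM of the hypoxic (left) and aerobic (right) forms of cytochrome c (CYC7 and CYC1) and of cytochrome oxidase subunit 5 (COX5B and COX5A) in every library, by hour, with strain 12 left of strain 11 in each panel. Filled circles are mixed cultures, open triangles single cultures and bars the mean of 6 libraries. All CYC7 points at 20 h lie above those at 12 h of the same strain.

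Of the other genes that rose, ATP4 (YPL078C) passed in both strains. Its medians at 12, 20 and 30 h were 723, 970 and 1346 CPM in strain 12 and 422, 1016 and 1012 CPM in strain 11. In strain 11 the lowest library at 20 h (798 CPM) lay above the highest at 12 h (662 CPM), while in strain 12 the ranges overlapped (673 to 1466 CPM at 20 h, 452 to 884 CPM at 12 h). The log2 fold change from 12 to 20 h was 0.60 ± 0.24 in strain 12 (adjusted p = 0.0455) and 1.16 ± 0.25 in strain 11 (adjusted p = 0.000194). The call in strain 12 was lost in 10 of 12 fits that left out 1 library, with RLE factors, with no filter, with DESeq2 and with the replicate number as a block, while that in strain 11 held in all of these.

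SDH4 (YDR178W) had medians of 71.5, 158 and 190 CPM in strain 12, with a log2 fold change of 1.10 ± 0.30 from 12 to 20 h (adjusted p = 0.00247), and 72.5, 115 and 123 CPM in strain 11. QCR10 (YHR001W-A) had medians of 54.5, 150 and 223 CPM in strain 12, with a log2 fold change of 1.29 ± 0.36 (adjusted p = 0.00314), and 48.2, 85.5 and 156 CPM in strain 11. For QCR10 in strain 12 all 6 libraries at 20 h (90.5 to 194 CPM) lay above those at 12 h (45.1 to 75.1 CPM). Of the 33 genes, 2 had all libraries at 20 h above those at 12 h in strain 12 and 4 in strain 11 (CYC7, ATP4, SDH3 and ATP16). In neither strain did a gene of the set have all of them below. Of all genes, 14.8% in strain 12 and 11.4% in strain 11 separated the times in either direction. The remaining genes that rose had log2 fold changes of 0.58 (SDH2) to 0.79 (COR1) in strain 12 and of 0.90 (SDH3) to 1.32 (ATP16) in strain 11.

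From 20 to 30 h no gene of the set passed the test in either strain, where 0.763% of all genes did in strain 12 and 1.2% in strain 11. At an unadjusted p under 0.05 there were 2 in strain 12 (QCR10 and ATP15) and 3 in strain 11 (CYC7, QCR7 and QCR10), all higher at 30 h, and DESeq2 called 0 in each strain.

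The number of genes that rose from 12 to 20 h rested in part on single libraries. It was 3 to 8 in strain 12 with 1 of its libraries left out (3 without replicate 1 of the single culture at 20 h, 4 without replicate 1 of the single culture at 12 h, replicate 3 of the single or replicates 1 or 2 of the mixed culture at 20 h, and 5 without replicates 2 or 3 of the mixed culture at 12 h) and 3 to 12 in strain 11 (3 without replicate 1 of the single culture at 20 h). With RLE factors, or with no filter on low counts, 4 rose in strain 12, where SDH1, SDH2, QCR9 and ATP4 no longer passed. Of these, QCR9 also lost its call in 10 of 12 fits that left out 1 library and with DESeq2. SDH1 and SDH2 each lost theirs in 8 of 12. In strain 11, QCR8 lost its call in 9 of 12 fits that left out 1 library and with DESeq2, and ATP7 in 7 of 12, with no filter, with DESeq2 and with the replicate number as a block. DESeq2 called 7 in strain 12, of which 6 rose and 1 fell, and 8 in strain 11, all of which rose.

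**Figure D4:**
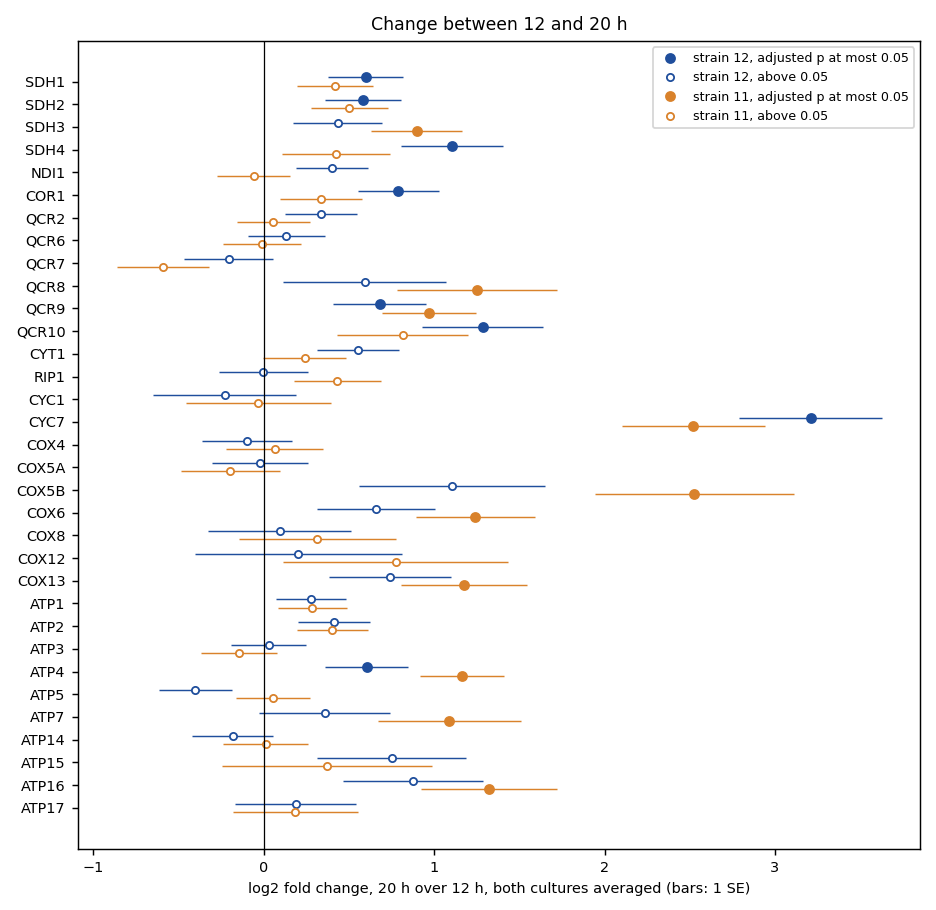
Log2 fold change of each tested gene from 12 to 20 h, cultures averaged, in strain 12 (blue) and strain 11 (orange), with bars of 1 SE. Filled points passed an adjusted p of 0.05. CYC7 stands apart in both strains at 3.21 and 2.52, and no filled point lies below 0.

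The upstream sequences of these genes are shown because the Hap2/3/4/5 complex is a known activator of the pathway through CCAAT. In RefSeq's R64 genome, the reference strain and not the strains studied here, CCAAT was found on either strand within 500 bases before the start codon in 33 of the 36 genes (91.7%), against 62.4% of 6000 nuclear genes. The longer motif ACCAATNA, which contains CCAAT, was found on either strand in 16 of the 36 (44.4%), against 8.6% of the 6000. A match describes letters only. The windows below are those of the 8 genes with an ACCAATNA match that passed the test in at least 1 of the 19 planned comparisons, a choice made after their values were seen. Each is printed 5′ to 3′ on the strand of its gene with the match in capitals, in R64 coordinates, which differ from those of the deposited tables. In COX6 the match is on the opposite strand and reads TNATTGGT.
SDH1, chrXI:171429-171458, minus strand: ggcgggggtggACCAATCAcagcgcagaac
COR1, chrII:135849-135878, minus strand: acgctttctgcACCAATGAaatgccaataa
COX5B, chrIX:155138-155167, plus strand: ttaaacaatagACCAATTAtttcaatttaa
COX6, chrVIII:209477-209506, plus strand: gaaaagggaccTAATTGGTccggtcaaagc
COX13, chrVII:144584-144613, plus strand: ttttttttcccACCAATGAgaggcggtact
ATP4, chrXVI:408916-408945, minus strand: atcaatattgaACCAATCAcgacgcttttt
ATP7, chrXI:408149-408178, minus strand: gtaaaagatacACCAATTAccacttgctgc
ATP15, chrXVI:29934-29963, plus strand: cttttatacgaACCAATGAaatttgatcct
The matches began between 73 bases (COX5B) and 351 bases (COR1) before the start codon. NDI1, QCR7, RIP1, COX8, COX12, ATP3, ATP14 and ATP17 also had a match and passed in none of the 19 planned comparisons. SDH2, SDH3, SDH4, QCR8, QCR9, QCR10, CYC7, COX4 and ATP16 passed in at least 1 and had no match. CYC7 and QCR9, which passed as higher at 20 h in both strains, had 1 CCAAT each and no ACCAATNA in the window. The call of QCR9 in strain 12 was lost in most fits that left out 1 library. COX4 had neither in its window, but its listed length of 808 bases exceeds its 468 coding bases in R64. How much of that window lies inside the listed COX4 gene was not tested, so its promoter is not shown to lack the motif.

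Genes that feed or serve the chain moved between 12 and 20 h as well. Among 5 other electron donors, 3 rose in strain 12 and 2 in strain 11. NDE2, an external NADH dehydrogenase, rose by a log2 fold change of 3.28 ± 0.49 in strain 12 (adjusted p = 2.37e-07) and 4.31 ± 0.55 in strain 11 (adjusted p = 6.1e-09), and its medians at 12 and 20 h were 10.6 and 118 CPM in strain 12 and 5.19 and 123 CPM in strain 11. GUT2, the mitochondrial glycerol 3-phosphate dehydrogenase, rose by 2.60 ± 0.30 in strain 12 (adjusted p = 1.64e-10) and 2.49 ± 0.28 in strain 11 (adjusted p = 1.8e-10). Of the tested carriers and porin (5 of 6 genes), 2 rose in strain 12 and 4 in strain 11, among them AAC1, a minor ADP/ATP carrier, by 2.54 and 2.13, and the phosphate carrier gene PIC2 by 1.18 and 0.74. The 12 h values of NDE2 rest on 1 to 9 reads per library in strain 12 and 0 to 5 in strain 11. Those of AAC1 rest on 0 to 5 reads in strain 12 and 1 to 11 in strain 11.

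CIT1, citrate synthase of the tricarboxylic acid cycle, rose by a log2 fold change of 1.03 in strain 12 and 1.16 in strain 11. In ubiquinone synthesis (7 of 9 genes tested) 2 rose in strain 12 and 3 in strain 11. COQ1 rose in both (0.90 in strain 12 and 0.94 in strain 11) and COQ5 in strain 11 (0.92). Among the transcription factors HAP1 to HAP5 and ROX1 (4 of 6 tested), HAP1 rose in both strains, by 1.04 in strain 12 and 0.94 in strain 11, and there were 2 rises in strain 12 and 1 in strain 11.

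In haem synthesis (7 of 8 tested) 0 genes passed in strain 12 and 1 fell in strain 11, HEM13, by 0.78 on the log2 scale. Of 18 assembly factors 9 were tested, with 1 rise and 2 falls in strain 12 and 1 of each in strain 11. ATP11, a chaperone of ATP synthase assembly, was the gene with the smallest p that fell, by 1.41 in strain 12 and by 1.17 in strain 11, and COX15, of haem A synthesis, rose by 0.86 in strain 12. Of the other ATP synthase genes 3 of 5 were tested. There, TIM11, subunit e of the synthase, and its inhibitor INH1 rose in strain 12 (1.01 and 1.14), and 0 genes passed in strain 11. Of 4 genes of oxygen-paired isoforms 2 were tested, and HYP2, translation factor eIF5A, fell by 0.77 in strain 12 and by 0.58 in strain 11. Its hypoxic partner ANB1 and the hypoxic ADP/ATP carrier AAC3 were not tested, with 41 and 58 reads in all. None of the 3 SDH paralogs was tested, and of the mitochondrially encoded subunits (6 of 7 tested) 0 passed in either strain.

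The second comparison asked what the presence of the other strain changed, and set mixed against single culture of the same strain at each time. In strain 12, 0 of the 33 genes passed at 12, 20 or 30 h, where 2.59%, 1.28% and 0.218% of all genes did. Without adjustment, 5, 1 and 0 of the 33 had p under 0.05, and DESeq2 called 0 at each time. In strain 11, COX4 fell in mixed culture at 12 h, ATP7 and ATP15 fell at 20 h, and 0 passed at 30 h, where 8.61%, 4.99% and 3.81% of all genes passed in either direction and 3.35% (12 h) and 1.88% (20 h) fell. DESeq2 called 3, 1 and 0. Without adjustment, 7, 6 and 5 had p under 0.05. The median log2 fold change of mixed over single culture over the 33 genes was 0.07, -0.37 and -0.36 in strain 12 and -0.18, -0.36 and -0.44 in strain 11 at the 3 times, and over all genes it lay between -0.05 and 0.01. The median of 0.07 was -0.03 without replicate 1 of the mixed culture. In strain 12 the median at 20 h was -0.10 when replicate 3 of the single culture was left out, and that at 30 h was -0.10 when mixed replicate 1 was. In strain 11 the median at 30 h was -0.17 when mixed replicate 2 was left out.

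COX4 (YGL187C), a zinc-binding nuclear subunit of cytochrome oxidase, was low in strain 11 from mixed cultures at every time. At 12 h strain 11 had 137, 84.5 and 124 CPM in mixed cultures, against 273, 252 and 290 CPM in single cultures. At 20 h it had 81.0, 208 and 97.5 CPM in mixed cultures, against 258, 233 and 356 CPM in single cultures. At 30 h it had 127, 84.6 and 158 CPM in mixed cultures, against 258, 299 and 277 CPM in single cultures. No library of a mixed culture reached the lowest of a single culture at any time. The log2 fold changes were -1.21 ± 0.36 at 12 h (adjusted p = 0.0230), -1.19 ± 0.44 at 20 h (adjusted p = 0.105) and -1.20 ± 0.42 at 30 h (adjusted p = 0.0998). The call at 12 h was lost without any 1 of 4 of the 6 libraries (replicates 2 and 3 of the mixed and 1 and 3 of the single cultures), with log2 fold changes between -1.34 and -1.05 over the 6. In strain 12 the mean level was 206, 229 and 313 CPM in mixed cultures and 331, 263 and 265 CPM in single cultures, with SDs of 43.2 to 181 CPM.

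The falls of ATP7 (YKL016C) and of ATP15 (YPL271W), which encodes the epsilon subunit of the ATP synthase head, rest on few reads. At 20 h strain 11 had 2, 0 and 10 reads of ATP7 in mixed cultures (23.1, 0 and 81.2 CPM), against 18, 6 and 21 reads in single cultures (232, 108 and 356 CPM). The log2 fold change was -2.48 ± 0.60 (adjusted p = 0.00752). For ATP15 it had 0, 1 and 2 reads in mixed cultures (0, 14.8 and 16.2 CPM), against 6, 6 and 10 reads in single cultures (77.5, 108 and 170 CPM). Here the log2 fold change was -3.34 ± 0.83 (adjusted p = 0.00881), and the ratio of the summed reads, each relative to library size, was 0.103 with an exact 95% interval of 0.0197 to 0.343 that covers counting error only. Both calls were lost without replicate 3 of the single or replicate 1 of the mixed cultures, that of ATP7 also without replicate 2 of the mixed cultures, and that of ATP15 under DESeq2.

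Averaging the 3 times, a comparison added after the values above were seen, 5 of the 33 genes fell in strain 11 from mixed cultures and none rose, and 0 passed in strain 12. The 9 libraries on each side may be repeated samples of the same triplicate fermentations, and the fit treated them as independent. Among all genes 14.7% passed in strain 11, with 6.24% lower and 8.5% higher, and 1.91% passed in strain 12. In strain 12, 3 of the 33 had an unadjusted p under 0.05, and DESeq2 called 0 there. COX4 had 81.0 to 208 CPM (median 124) in the 9 mixed libraries of strain 11, against 233 to 356 CPM (median 273) in the 9 single ones, and a log2 fold change of -1.20 ± 0.24 (adjusted p = 0.000113). QCR7 had 104 to 520 CPM (median 377) in mixed cultures, against 336 to 961 CPM (median 604) in single cultures, with -0.79 ± 0.22 (adjusted p = 0.00845). Both calls held without any 1 of the 18 libraries. The other 3 were ATP15 (-1.29 ± 0.42, adjusted p = 0.0246), QCR10 (-0.97 ± 0.30, adjusted p = 0.0181) and ATP5 (-0.56 ± 0.18, adjusted p = 0.0243). These calls were lost in 6 (ATP15), 4 (QCR10) and 8 (ATP5) of 18 fits that left out 1 library, and that of ATP5 also with no filter and with the replicate number as a block. The count was 2 to 7 with 1 library left out, with 2 without replicate 2 of the single culture at 30 h and 3 without replicate 3 of the single culture at 12, 20 or 30 h or replicate 1 of the mixed culture at 20 h.

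Whether this differed between the strains was tested as an interaction, strain 12 minus strain 11. For COX4 it was 1.01 ± 0.32 on the log2 scale (adjusted p = 0.0787) and for QCR7 0.63 ± 0.31 (adjusted p = 0.312), and 0 of the 33 genes passed, where 2.53% of all genes did. Of the 33, 4 had an unadjusted p under 0.05, and DESeq2 called 0. In strain 12 the log2 fold change of COX4 in mixed culture was -0.19, with a 95% interval of -0.63 to 0.25. At the single times the interactions called 0 genes of the set, against 1.17%, 0.0817% and 0.0272% of all genes at 12, 20 and 30 h. There, 0, 2 and 1 had an unadjusted p under 0.05 and DESeq2 called 0.

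Strain 11 from mixed cultures also carried less of the strain 11 genes used above to follow the other strain's RNA, with summed levels of 35.2 to 113, 16.2 to 193 and 23.1 to 146 CPM at 12, 20 and 30 h, against 174 to 231, 181 to 287 and 207 to 261 CPM in single cultures. The part of RNA from the other strain in these differences was not tested, and neither was a change in the expression of the marker genes themselves.

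The subunits encoded in mitochondrial DNA, which join the products of these nuclear genes in the same complexes, were also lower in mixed than in single cultures of strain 11. Averaged over the times, 5 of the 6 tested fell in strain 11 from mixed cultures. COX1, the catalytic subunit of cytochrome oxidase, had 775, 277 and 1037 CPM at 30 h in mixed cultures, against 4084, 4420 and 1567 CPM in single cultures, with no overlap. It changed by a log2 fold of -1.75 ± 0.31 over the 3 times (adjusted p = 2.14e-05). COB, cytochrome b of the bc1 complex, changed by -2.20 ± 0.40 (adjusted p = 3.01e-05). In strain 12 the same values were -0.46 for COX1 and -0.52 for COB and did not pass. The interaction averaged over the times called 0 of the 6. For strain 12 over strain 11, the median log2 fold change of the 6 was 0.36 in mixed culture, with 1 called higher. In single culture it was -0.60, with 1 called lower. Of all genes, 9.75% passed between the strains in mixed and 1.47% in single culture, and 2.53% for the interaction.

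Of the related lists in the same averaged comparison of strain 11, transcription factors had 3 falls among 4 tested, HAP1 (-0.75 ± 0.17, adjusted p = 0.000863) and ROX1, the repressor of hypoxic genes (-0.69 ± 0.22, adjusted p = 0.022), among them. Carriers and porin had 3 falls among 5 and haem synthesis 2 among 7. Of the other electron donors 3 of 5 rose. HYP2 and PET9, the main ADP/ATP carrier, made up the tested oxygen-paired isoforms, with PET9 lower (-0.54 ± 0.19, adjusted p = 0.0362). No gene passed among the tested genes of ubiquinone synthesis, assembly factors and other ATP synthase subunits. ROX1 was the gene of these lists whose response differed between the strains (interaction 1.43 ± 0.32, adjusted p = 0.00599).

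**Figure D5:**
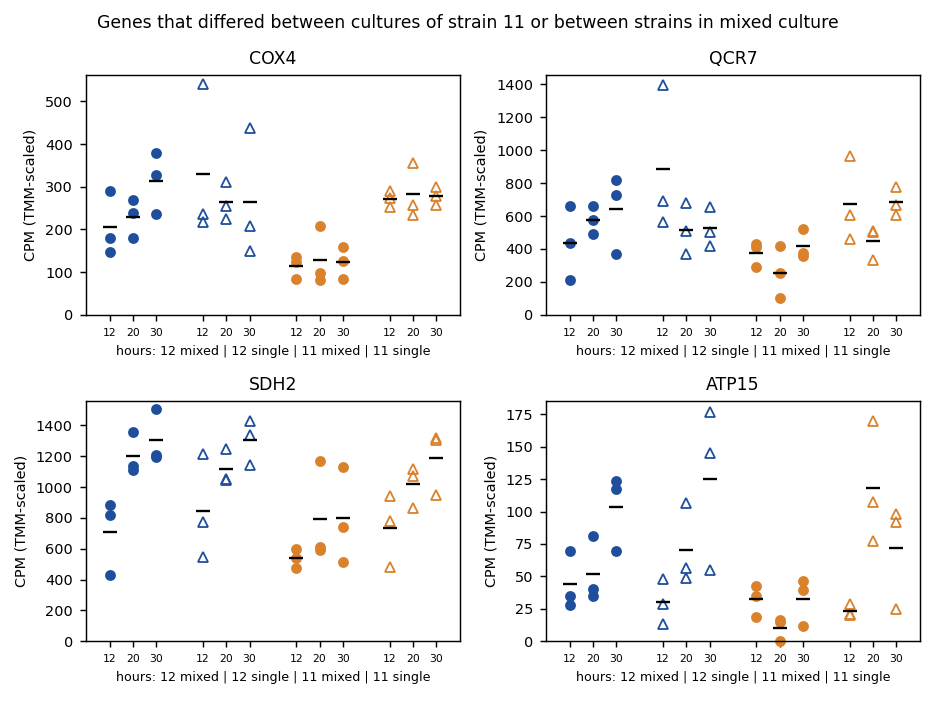
CPM of COX4, QCR7, SDH2 and ATP15 in every library at 12, 20 and 30 h, with mixed (circles) left of single cultures (open triangles) and strain 12 (blue) left of strain 11 (orange). Bars are means of 3 libraries. COX4 in strain 11 lies at 81.0 to 208 CPM in mixed cultures and at 233 to 356 CPM in single cultures.

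The third comparison asked how the dominant strain differed from the non-dominant one within a culture. Of the 33 genes, 0 passed in mixed cultures at 12, 20 and 30 h, where 5.04%, 0.191% and 0.899% of all genes did, and 0 passed in single cultures, where 1.04%, 0.572% and 0.518% did. At an unadjusted p under 0.05 there were 2, 3 and 6 genes in mixed cultures, all higher in strain 12, and 1, 1 and 1 in single cultures. DESeq2 called 1 gene in mixed cultures at 30 h and 0 in the others. In mixed cultures the log2 fold change of strain 12 over strain 11 was above 0 for 30, 23 and 29 of the 33 genes, with medians of 0.35, 0.21 and 0.44, and medians over all genes of 0.04, -0.02 and -0.02. In single cultures the medians of the set were 0.10, 0.12 and 0.26.

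Averaged over the times, again a comparison added after the data were seen, 4 genes were higher in strain 12 than in strain 11 in mixed culture and none lower, and 0 passed in single culture. Of all genes 9.75% passed in mixed culture, with 3.98% higher and 5.78% lower, and 1.47% passed in single culture. At an unadjusted p under 0.05 there was 1 gene of the set in single culture, and DESeq2 called 0 there. COX4 had 147 to 378 CPM (median 238) in the 9 mixed libraries of strain 12, against 81.0 to 208 CPM (median 124) in the 9 of strain 11, and a log2 fold change of 1.03 ± 0.23 (adjusted p = 0.00125) that passed without any 1 of the 18 libraries. SDH2 had a median of 1140 CPM (427 to 1505) in strain 12, against 595 CPM (476 to 1172) in strain 11, and a log2 fold change of 0.58 ± 0.18 (adjusted p = 0.0302). ATP15 (1.33 ± 0.41, adjusted p = 0.0253) and QCR7 (0.69 ± 0.22, adjusted p = 0.0297) were the others. Their calls were lost in 7 (SDH2), 4 (ATP15) and 8 (QCR7) of 18 fits that left out 1 library, and DESeq2 called 6 genes, all higher in strain 12. In single culture the log2 fold change of COX4 was 0.02, with a 95% interval of -0.42 to 0.47. This comparison shares the mixed libraries of strain 11 with the one between cultures above, so the low COX4 there enters both. With 1 library left out the count in mixed culture was 1 to 6, and it was 1 without replicate 1 of strain 11 at 20 h or replicate 2 of strain 12 at 30 h and 2 without replicate 2 of strain 12 at 12 h or replicates 2 or 3 of strain 11 at 30 h.

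As a description of single patterns over the 12 group means, CYC7 was most like FUN19 (r = 0.97), RPN4, an activator of proteasome genes (0.97), and YOR121C (0.96). COX4 was most like TYE7, an activator of glycolytic genes (0.90), IDH2, a subunit of isocitrate dehydrogenase (0.90), and DSE4, a cell wall glucanase (0.89).

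Some values are uncertain because genes overlap. ATP1 (chromosome II, 37050 to 38687, plus strand in the coordinates of the tables) overlaps YBL100C on the other strand, with 206 reads in all, and ATP14 (chromosome XII, 722001 to 722375, minus strand) overlaps YLR294C, with 411 reads. Whether strand was used in counting is not given in the sources used here. In the same coordinates COX4 lies on chromosome VII, 149710 to 150531, minus strand, and CYC7 on chromosome V, 79636 to 79977, minus strand.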

How the data were processed

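For each of the 36 libraries the authors deposited whole-number read counts per gene, made from SOLiD reads aligned to Saccer2. Their notes name Cufflinks 1.3.0 and Cuffdiff. The exon tables and the deposited RPKM were read only to check the gene counts, and no reported value rests on them. The use of strand and the mapping settings are not stated. From the counts, edgeR 4.0.16 (R 4.3.3) was fitted to all 36 libraries with 1 coefficient per group, TMM factors (0.888 to 1.08) and filterByExpr, and 19 comparisons were tested by quasi-likelihood with Benjamini-Hochberg adjustment over 3670 genes and a threshold of 0.05. A further 5, averaging the times, were added after the data were seen. With 3 libraries against 3 an exact permutation test cannot go below 0.1, so none was used for single genes at single times. The labels number replicates but do not say whether a number marks a shared culture, so p-values measure the spread between libraries. By the paper's methods the times were aliquots of triplicate fermentations. Tests that join or compare times treated their libraries as independent, and these are not shown to be separate cultures. The replicate numbers of the strains deviated together at 12 h, with correlations of 0.453, 0.288 and 0.38 in single and 0.196, 0.104 and 0.173 in mixed cultures, and in no other comparison were all 3 over 0.1.

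CPM and RPKM are TMM-scaled, with lengths as deposited. Levels were given for the isoform pairs and for up to 3 genes with the smallest adjusted p among those called in a comparison, and the rule also named 2 genes from each related list and the 5 genes most like the set. All 36 genes were accounted for. The genes and the 11 related lists (82 genes, 59 tested) were chosen with earlier results of these data known. The counts of the tricarboxylic acid cycle list are not reported here. Alternatives were RLE factors, no filter, DESeq2 1.42.0, the replicate number as a block, and each library left out in turn.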

Additional observations from a re-analysis of the deposited data

How the results depend on the processing

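No gene named with a call changed direction under the alternatives run, while the medians over the 33 genes between cultures of strain 12 at 12 h and from 20 to 30 h in strain 11, both near 0, did without 1 library. DESeq2 gave 3 genes in place of 1 in strain 11 between cultures at 12 h, 1 in place of 2 at 20 h, 1 in place of 0 between strains in mixed culture at 30 h, and 6 in place of 4 there averaged over the times. RLE factors gave 4 and no filter gave 4 in place of 8 genes that rose from 12 to 20 h in strain 12. With 1 library left out in turn, counts ran from 0 to 1 (12 h), 0 to 2 (20 h) and 0 to 1 (30 h) between cultures of strain 11, from 0 to 1 in strain 12 at 12 h, from 3 to 12 (strain 11) and 3 to 8 (strain 12) between 12 and 20 h, and, averaged over the times, from 2 to 7 between cultures of strain 11, from 1 to 6 between strains in mixed culture and 0 to 1 for the interaction. With the replicate number as a block, 9 in place of 10 genes rose from 12 to 20 h in strain 11, and no other count changed, though ATP4 in strain 12 and ATP5 between cultures of strain 11 lost their calls with it as ATP7 did. Between the strains at 12 h, where the numbers paired the samples, the block left 0 genes in either culture. The counts of 1 in place of 0 came without replicate 3 of the single culture of strain 11 at 30 h, replicate 2 of the mixed culture of strain 12 at 12 h and, for the interaction, replicate 2 of strain 12 in single culture at 12 h, replicate 2 of strain 11 in mixed culture at 20 h or replicate 1 of strain 12 in single culture at 30 h. The cause of these shifts was not tested. Depth limits COX7, COX9, ATP20, COX12, COX5B, ATP15 and CYC7 (at 12 h, and in strain 12 at 20 h), where libraries hold few reads or none. It also limits QCR8, COX8, ATP7, ATP16 and CYC1, where some libraries hold 0 or 1 read, and NDE2 and AAC1 at 12 h. A gene that did not pass is not shown to be unchanged.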
